A study of Brassica rapa with 36 samples.

Results

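The genes described here are pollen transcripts of Brassica rapa that were almost missing from microspores, the immature pollen cells, and from leaf. Genes were chosen by their measured levels: at least 200 CPM (counts per 1000000 gene counts of a library) in K2 pollen, a mean under 20 CPM in leaf and in late, unheated and heated microspores of both lines, and a median under 50 CPM over 9 embryo libraries. Of 47135 gene IDs 10 met these limits, out of 652 that reached 200 CPM in pollen. Those pollen levels and ceilings are given as a description, with no test. The rule set ceilings on the leaf and microspore group means, and tests between those groups are of members already held under 20 CPM in each.

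The series covers androgenesis, the formation of embryos from microspores, in the inducible line K2 and the non-inducible line 49CX. K2 was sampled as pollen at flowering, as 2-, 4- and 8-cell embryos, as late unicellular microspores, as microspores after and without heat shock, and as stalk leaf; 49CX as the same 3 kinds of microspores and as stalk leaf. Isolated cells went into strand-specific RNA-seq with a protocol for small inputs, 3 libraries for each of the 12 groups. Plant age, cell number and the length and temperature of the heat shock are not in the labels. Nor do they tell whether replicates were separate plants. The p-values below therefore cover nothing beyond the spread between libraries, which may be technical.

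In a maturing anther the microspore divides unequally into a large vegetative cell and a small generative cell, and the generative cell later forms the sperm cells. Part of the pollen transcriptome appears only after that division. Late pollen transcripts are known for products that serve germination and growth of the pollen tube, such as enzymes that loosen the cell wall, ion transporters and regulators of the actin skeleton. The IDs in these files come without names, and in the RefSeq table of assembly CAAS_Brap_v3.01 a match was found for 0 of the 47135. No function is therefore given for any member, and neither the label pollen nor any other tissue label could be checked against marker genes.

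Depth limits every value below. Gene counts per library were 118317 in pollen, 6021 to 170479 in embryos, 85651 to 529458 in microspores and 213245 to 1179935 in leaf, so the ceiling of 20 CPM equals 1.71 to 10.6 counts in a microspore library. Pollen rests on 1 library with no replicate check, since replicates 2 and 3 of that group had no gene with a count above 0. Among embryos, 2-cell replicate 2, 4-cell replicate 3 and 8-cell replicate 3 stood apart by their summed member level, as described below. In 4-cell replicate 3 this came from a single member, BraC04g008260.1. The libraries 2-cell replicate 3 and 4-cell replicate 1 were so shallow that 3 counts correspond to 498 and 351 CPM.

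In pollen the members together held 809 counts, 0.684% of the library (0.638% to 0.732%, exact Clopper-Pearson 95% interval, which covers counting error only). The other 642 genes with at least 200 CPM held 81.4% of it. BraC09g011060.1 was the most abundant member at 2197 CPM (260 counts, 1938 to 2481 CPM, exact Poisson 95% interval) and held rank 104 of all genes in pollen. BraC09g069210.1 followed with 1099 CPM and BraC04g008260.1 with 1014 CPM, whose intervals overlap. BraC08g023270.1 stood at 718 CPM, BraC08g005710.1 at 465 and BraC01g042910.1 at 397. The lowest were BraC01g045040.1 with 279, BraC06g051750.1 with 237, BraC08g017150.1 with 228 and BraC06g049330.1 with 203 CPM, on 33, 28, 27 and 24 counts, and the intervals of these 4 overlap. The members spanned ranks 104 to 640 of the genes in pollen.

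The members do not lie side by side in the ID numbering. They carry 5 of the 10 prefixes that the IDs use, with 3 members under C08, 2 each under C01, C06 and C09, and 1 under C04, and no pair lies within 3 IDs of each other. Of their 20 direct neighbours in the numbering 14 had 0 counts in pollen, where 83.1% of all gene IDs had 0. A single one of the 20 was itself a pollen gene, where 1.38% of all gene IDs were. This was BraC09g069200.1, next to BraC09g069210.1, with 448 CPM in pollen. Its highest microspore or leaf group mean was 28.6 CPM, above the ceiling.

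**Figure D1:**
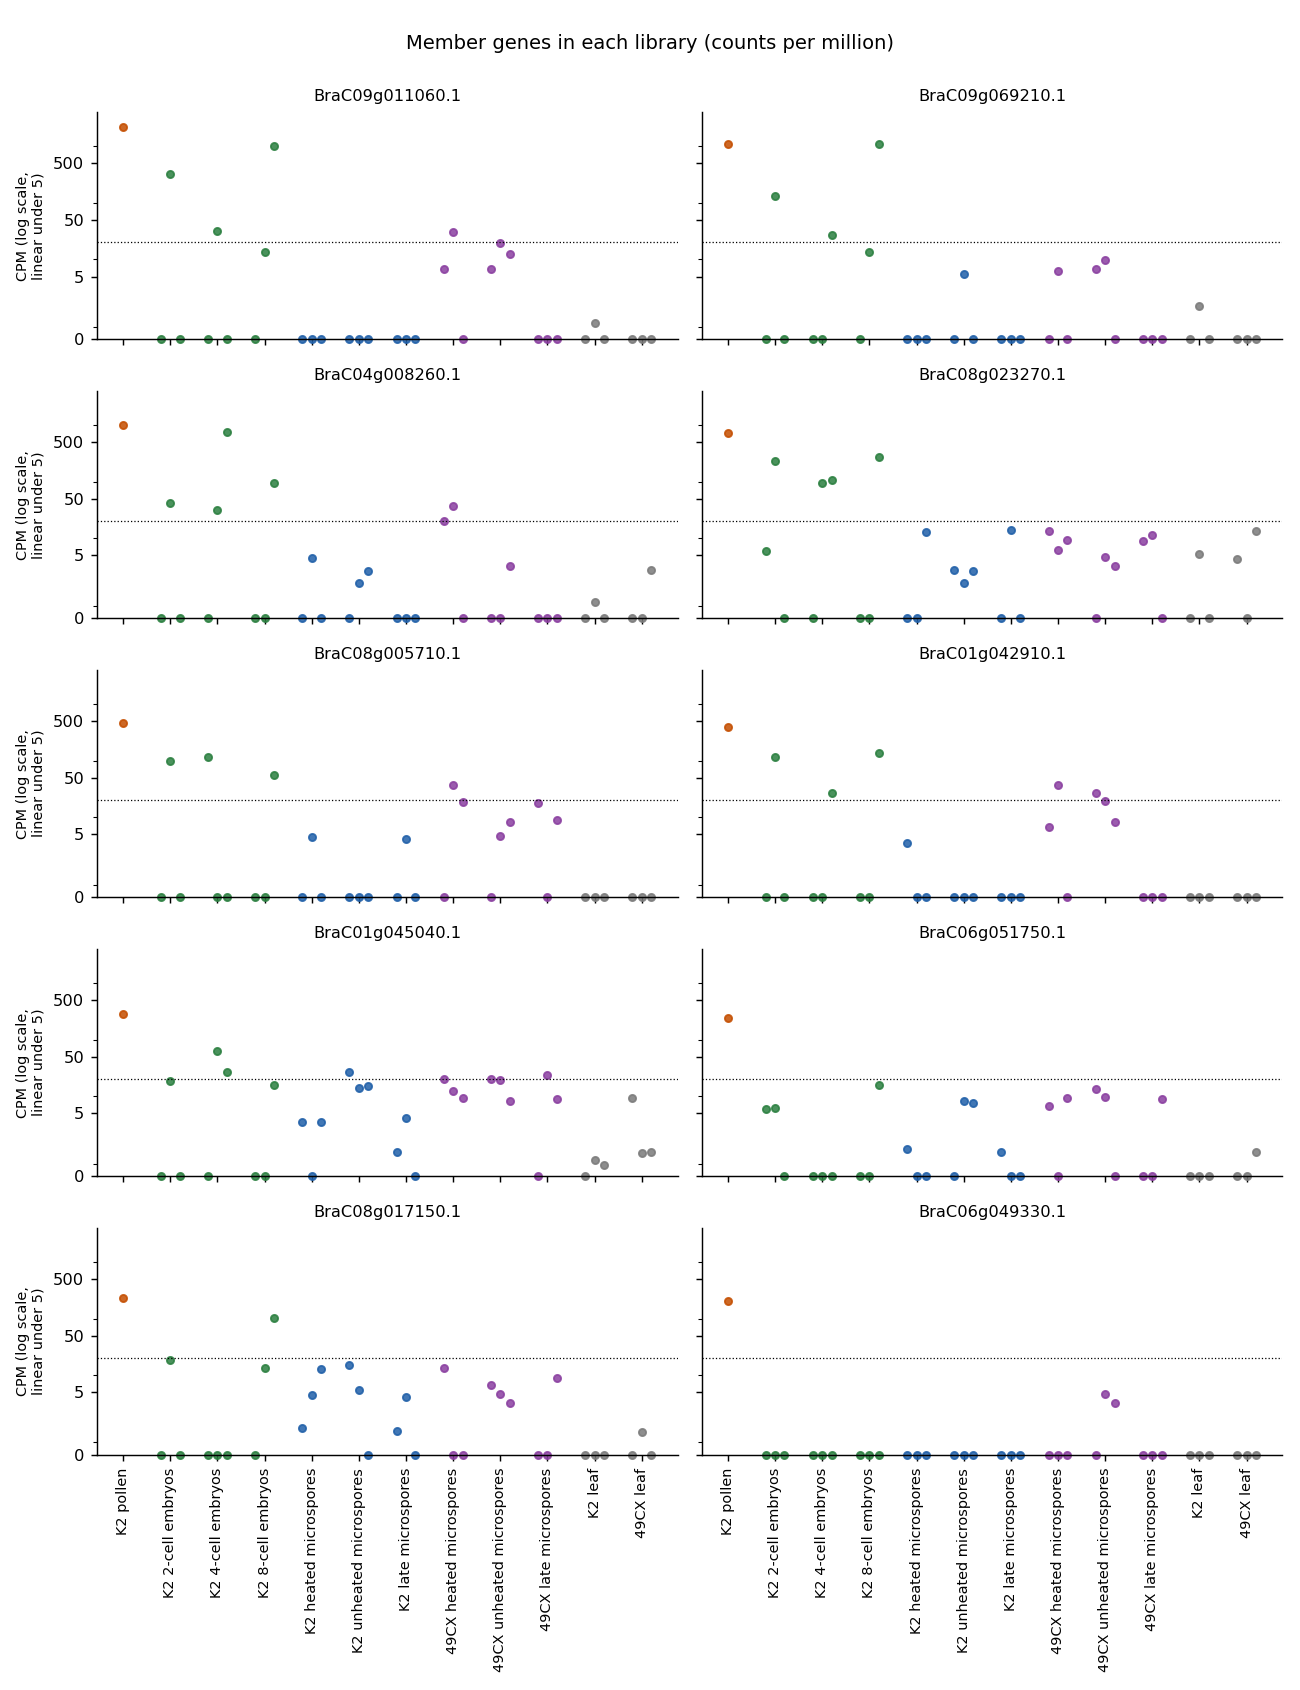
CPM of the 10 member genes in each of the 34 libraries with gene counts, on a log scale that is linear under 5 CPM; points are libraries, coloured by tissue and line, and the dotted line marks 20 CPM. Pollen lies above every microspore and leaf library for each member, which the selection limits fixed. Single embryo libraries, limited only through a median, reach values near pollen, such as 1094 CPM for BraC09g069210.1 in 8-cell replicate 3.

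Most pollen genes reached the ceiling in heated or unheated 49CX microspores, and many of these also failed a leaf or K2 limit. Genes that failed in 1 group alone numbered 9 for heated and 7 for unheated 49CX microspores. Of the 652 pollen genes, 615 (94.3%) had a mean of at least 20 CPM in heated and 615 in unheated 49CX microspores, and 630 did so in either group. The numbers in K2 were 202 in heated and 365 in unheated microspores and 210 in late microspores, and 351 reached 20 CPM in 49CX late microspores. Leaf removed fewer genes, with 154 in K2 and 164 in 49CX. With the leaf and K2 microspore limits alone 219 genes would have remained, with 49CX late microspores added 196, and both cultured 49CX groups brought the number to 10. The embryo limit removed 0 of these. In bulk libraries fewer cells of a type and less RNA per cell cannot be told apart.

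**Figure D2:**
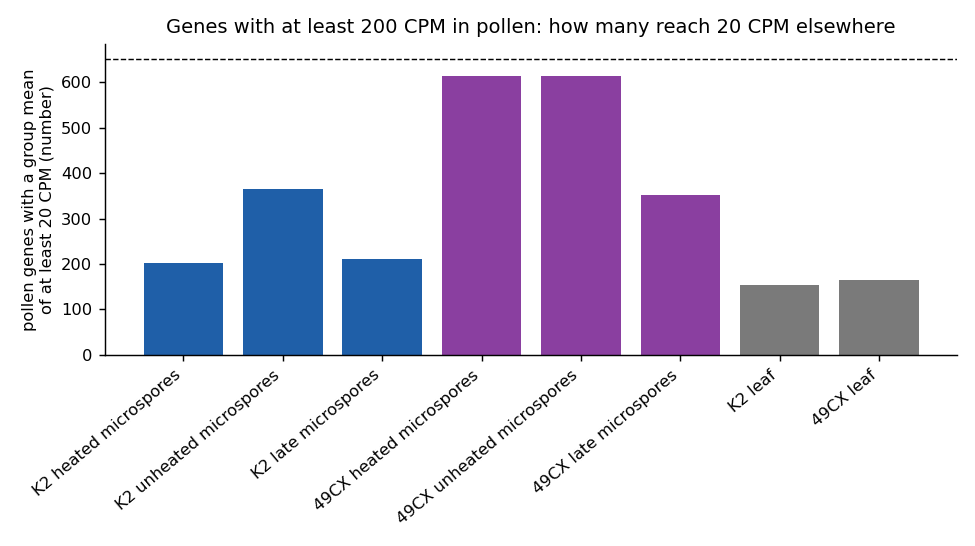
Number of genes with at least 200 CPM in pollen that had a group mean of at least 20 CPM in each microspore and leaf group; the dashed line marks all 652 pollen genes. Heated and unheated 49CX microspores, with 615 genes each, come closest to that line, and K2 leaf, with 154, is farthest from it.

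The number of members follows the limits closely. A ceiling of 10 CPM left 5 genes, 30 CPM gave 27, 50 CPM gave 62 and 100 CPM gave 182, which is 27.9% of the pollen genes. Just outside the ceiling were BraC01g049650.1, with 955 CPM in pollen and 20.8 CPM in heated 49CX microspores, and BraC09g000570.1, with 262 CPM in pollen and 21.5 CPM in unheated 49CX microspores. Just inside was BraC04g008260.1, with 19.1 CPM in heated 49CX microspores. The first gene below the pollen minimum was BraC02g013490.1, with 177 CPM on 21 counts, and 24 genes between 100 and 200 CPM met all other limits. On TMM-scaled CPM, which corrects for composition, 13 genes met the limits, of which 6 were among the 10.

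Traces of the members were found in every microspore group. Their summed level was 19.2 ± 9.58 CPM in heated and 38.3 ± 8.11 in unheated K2 microspores and 11.1 ± 14.6 in K2 late microspores. In 49CX it was 100.5 ± 61.0 CPM in heated and 77.0 ± 21.4 in unheated microspores and 32.3 ± 4.85 in late microspores (SD, n = 3 each). Against pollen, these are 0.163% (K2 late) to 1.47% (heated 49CX) of the members' level there. The other 642 pollen genes stood at 2.70% of their pollen level in heated and 14.7% in unheated K2, and at 29.98% in heated and 34.01% in unheated 49CX. The ceiling fixed the gap between members and other pollen genes, so that gap is not a result. The K2 late mean rests on replicate 2 and was 2.83 CPM without it. Heated K2 libraries held 12.97 to 30.2 CPM and unheated ones 29.8 to 46.0, which overlap. Unheated K2 libraries were all below those of unheated 49CX, which held 54.3 to 96.7 CPM. A sum over members chosen with these results known was given no p.

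**Figure D3:**
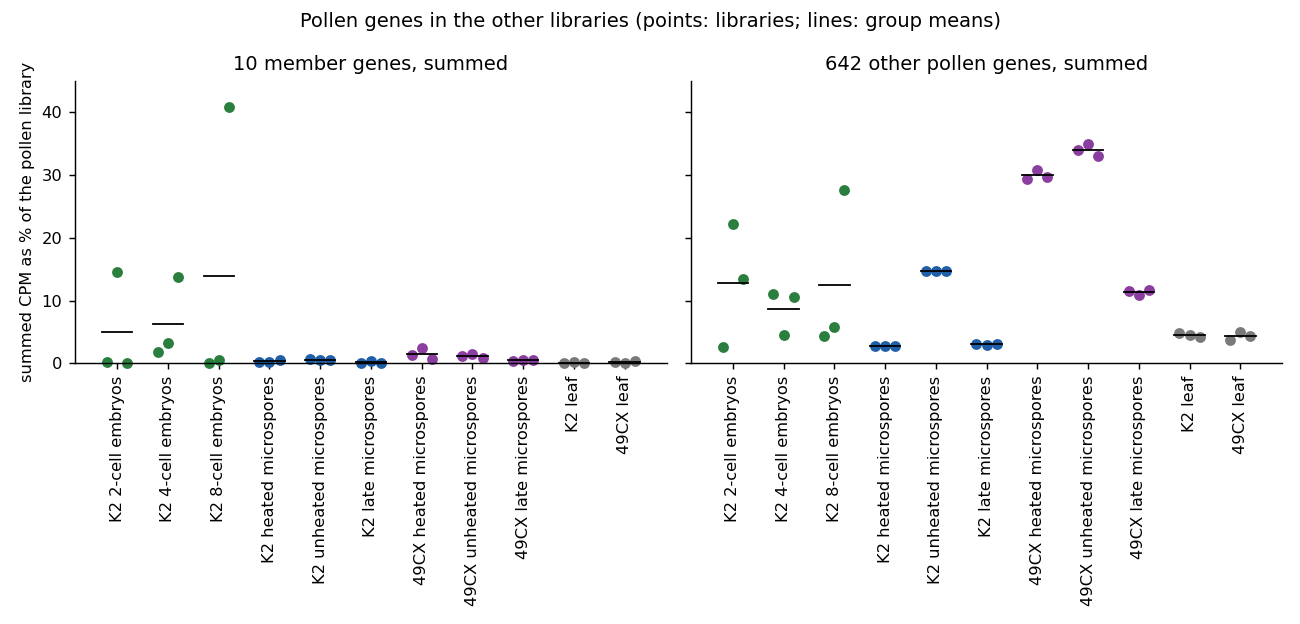
Summed CPM of the 10 members (left) and of the 642 other pollen genes (right) in each library, as a percentage of the same sum in the pollen library; points are libraries and lines group means. The members reach at most 2.44% in any microspore or leaf library, where the ceiling kept them low. In embryos, limited only through a median, 3 libraries stand out at 40.9%, 14.6% and 13.8%.

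BraC01g045040.1 was the member with the most microspore counts, 39 over 15 of 18 libraries. In K2 it had 4.32, 0 and 4.32 CPM in the 3 heated libraries, against 26.8, 13.9 and 14.9 CPM in the 3 unheated libraries. No heated library reached an unheated one. It fell with heat, by 2.67 ± 0.88 (approximate SE) on the log2 scale, with an adjusted p of 0.0126 (edgeR's quasi-likelihood test, Benjamini-Hochberg over 30965 genes). On pooled counts, 3 with heat against 16 without, the ratio was 0.185 (0.0345 to 0.645, exact 95% interval). It was the 1 member called of 8 with at least 10 counts in the microspore libraries, in a comparison in which 25.9% of all genes were called, 11.6% higher and 14.3% lower. The call was lost without heated replicate 2 (adjusted p = 0.0510) and without unheated replicate 1 (adjusted p = 0.0632).

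The same member rose in unheated K2 microspores, at the 26.8, 13.9 and 14.9 CPM given above, against 1.89, 4.61 and 0 CPM in K2 late microspores. All 3 unheated libraries were above all 3 late ones. The log2 change was 3.07 ± 0.94 (approximate SE; edgeR, adjusted p = 0.00916), and the ratio of 16 to 2 counts was 8.67 (2.04 to 77.7). Again it was the 1 member called of 8, where 19.6% of all genes were called, 10.8% higher and 8.8% lower. Without K2 late replicate 1 the call was lost (adjusted p = 0.0743).

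In 49CX BraC01g045040.1 had 20.4, 12.3 and 9.27 CPM with heat, against 19.97, 19.3 and 8.36 CPM without. These groups overlap, and the log2 change was -0.27 ± 0.90 (edgeR, adjusted p = 1). The difference between the heat effects of K2 and 49CX was -2.40 ± 1.28 on the log2 scale and was not called (edgeR, adjusted p = 0.310). A difference between the lines in the heat effect was thus not shown for this gene.

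BraC01g042910.1 and BraC09g011060.1 were lower in unheated K2 than in unheated 49CX microspores. BraC01g042910.1 had 0 counts in all 3 unheated K2 libraries, against 26.6, 19.3 and 8.36 CPM in unheated 49CX. BraC09g011060.1 had 0 counts in all 3 unheated K2 libraries as well, against 6.66, 19.3 and 12.5 CPM in unheated 49CX. Against the level that 3 counts over the K2 group would give, they were at least 4.97-fold and at least 3.97-fold lower in K2 (edgeR, adjusted p = 0.00650 and 0.0212). They were the 2 members called of 8, where 13.3% of all genes were called, 8.25% higher and 5.05% lower, and the median log2 difference of all genes was 0.78. Both passed the minimum of 10 counts through 49CX, where all 14 microspore counts of BraC09g011060.1 and all but 2 of the 19 of BraC01g042910.1 lay in heated or unheated libraries. A member that passes through the line where it is high is more likely to be called, so the number called supports nothing about the members. BraC09g011060.1 was called in 1 of the 6 fits that leave out a library, with an adjusted p of at least 0.0501 in the other 5: without unheated K2 replicate 1, 2 or 3, or unheated 49CX replicate 2 or 3. DESeq2 called 0 members and gave no adjusted p for 7 of the 8, both genes included.

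In K2 BraC09g011060.1 had 0 counts in all 9 microspore libraries, and BraC01g042910.1 had 2 counts, both in heated replicate 1. Both also had 0 counts in all 3 libraries of 49CX late microspores. BraC01g042910.1 had 10 counts and BraC09g011060.1 had 8 in unheated 49CX, and the bounds on their rise over late microspores were at least 1.74-fold and at least 1.39-fold. These did not pass the test (edgeR, adjusted p = 0.0638 and 0.125). For that comparison edgeR called 0 of 8 members, 2 had an unadjusted p under 0.05 and DESeq2 called 0 but gave no adjusted p for 7 of the 8, where edgeR called 7.63% of all genes, 5.34% higher and 2.3% lower. BraC01g042910.1 was called when only the 2 groups were fitted (edgeR, adjusted p = 0.0230), or with the size factors of DESeq2 (edgeR, adjusted p = 0.0412). In the fit of 2 groups only 2 members were tested, and this gene met the minimum of 10 counts through unheated 49CX alone. In the larger fit it passed mainly through heated and unheated 49CX. These calls therefore support nothing about a rise over late microspores.

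Heat in 49CX gave no member call. BraC04g008260.1 had 20.4, 37.0 and 0 CPM in heated 49CX, against 0, 0 and 4.18 CPM in unheated 49CX. Heated replicate 3 was at 0, so the groups overlap, and the ratio of 9 to 1 counts was 12.9 (1.78 to 564). BraC08g005710.1 had 0, 37.0 and 18.5 CPM with heat, against 0, 4.84 and 8.36 CPM without. Of 8 members edgeR called 0, with 1 at an unadjusted p under 0.05 (BraC04g008260.1, adjusted p = 0.300), and DESeq2 gave an adjusted p for none of them; edgeR called 2% of all genes, 0.865% higher and 1.14% lower. The difference of heat effects between the lines was called for 0 of 8 members by edgeR, with 0 at an unadjusted p under 0.05, and for 0 by DESeq2, which gave no adjusted p for 7 of the 8, where 7.38% of all genes were called, 1.74% higher in K2 and 5.63% lower.

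The other members left thinner traces. BraC08g023270.1 was found in 12 of 18 microspore libraries, with 17 counts in all and group means between 3.005 and 9.69 CPM. BraC08g017150.1 was found in 12 libraries with 19 counts, and BraC06g051750.1 in 9 with 14. BraC09g069210.1, the second most abundant in pollen, had 6 counts in 4 microspore libraries, of which 1 was K2. BraC06g049330.1 came closest to pollen alone: outside its 24 pollen counts it had 2 counts in the series, 1 each in unheated 49CX replicates 2 and 3. BraC09g069210.1 and BraC06g049330.1 had under 10 microspore counts and were not tested there.

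Leaf traces were low as well. K2 leaf held 4.22 ± 6.60 CPM of the members together, against 12.9 ± 8.65 CPM for 49CX leaf (SD over 3 libraries each). The K2 leaf mean was below that of every microspore group, and the 49CX leaf mean lay between those of late and heated K2 microspores. K2 leaf was at 0, 11.8 and 0.848 CPM and 0.424 CPM on average without replicate 2. BraC08g023270.1 was the leading leaf member, with 0, 5.25 and 0 CPM in K2 leaf, against 4.69, 0 and 13.3 CPM in 49CX leaf. Of its 8 counts in 49CX leaf 7 were in replicate 3. It was the 1 member with enough counts to test, and its log2 difference was -2.08 ± 1.09 (edgeR, adjusted p = 0.128; 0 of 1 member called, 0 at an unadjusted p under 0.05 and 0 by DESeq2). Of all genes 34% were called, 20.1% higher and 13.9% lower in K2. Without 49CX leaf replicate 2 the member was called (adjusted p = 0.0349). BraC08g005710.1, BraC01g042910.1 and BraC06g049330.1 had 0 counts in all 6 leaf libraries.

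Members approached their pollen level in single embryo libraries. The rule held leaf and microspore group means under 20 CPM and embryos only by a median over 9 libraries. Only embryo libraries, and for each member a minority of them, could therefore come near pollen, and the contrast with microspores and leaf is not a result. Of 565 member counts in 9 embryo libraries, 552 lay in 3: 353 in 8-cell replicate 3, 164 in 2-cell replicate 2 and 35 in 4-cell replicate 3. The summed levels there were 2798, 997 and 943 CPM. The other 6 libraries had 13 counts in all, between 0 and 223 CPM. Stage means were 336 ± 572 CPM at 2 cells, 428 ± 449.6 at 4 and 946 ± 1604 at 8 (SD, n = 3 each), and were 5.87, 170.2 and 20.1 CPM without those libraries. The SD exceeds the mean at every stage, and the stages could not be ordered. In the same 3 libraries the other 642 pollen genes held 22.4%, 18.1% and 8.57% of gene counts, and 2.07% to 10.9% in the other 6, so 4-cell replicate 3 lay within the range of the other 6 and the remaining 2 above it. Of the reads of 8-cell replicate 3, 71.8% fell in no annotated gene, against 59.5% and 65.3% for replicates 1 and 2. The share was 78.8% in 4-cell replicate 3, against 65.1% and 76.9% in replicates 1 and 2, and 59.4% in 2-cell replicate 2, between the 55.4% and 65.8% of replicates 1 and 3. The high library thus had the largest such share of its stage at 4 and 8 cells and not at 2 cells. The part of these differences in the member levels was not tested.

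**Figure D4:**
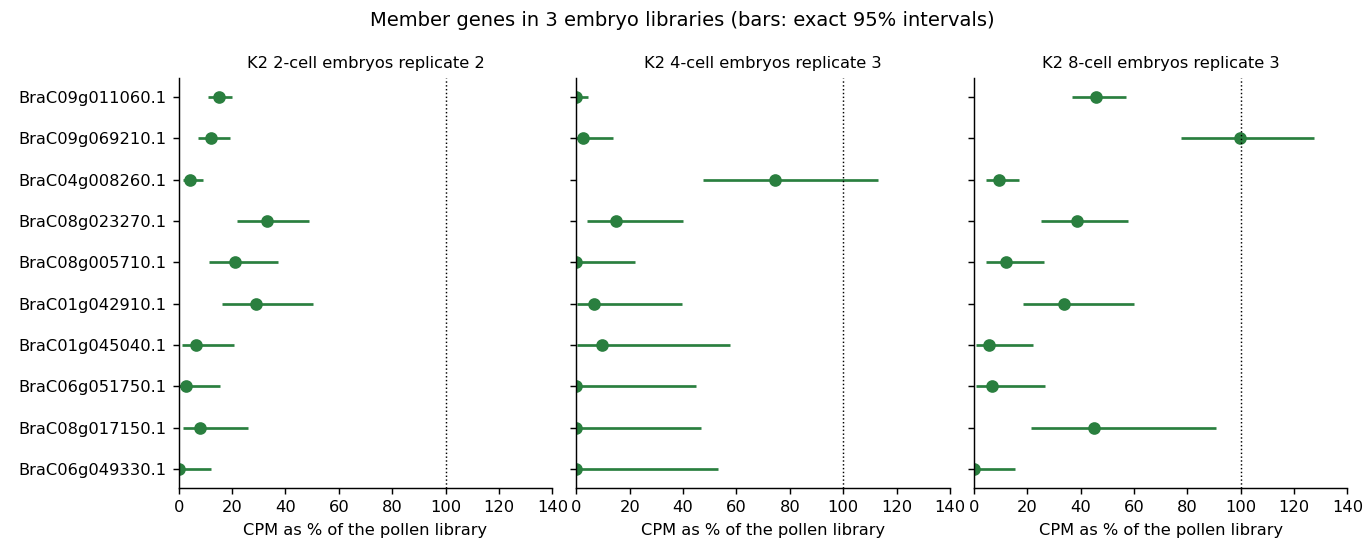
CPM of each member in the 3 embryo libraries with the highest summed member level, as a percentage of its CPM in pollen; bars are exact 95% intervals for counting error and the dotted line marks the pollen level. Members differ within a library: in 8-cell replicate 3 BraC09g069210.1 lies at 99.6% and BraC04g008260.1 at 9.38%, and in 4-cell replicate 3 BraC04g008260.1 lies at 74.4%.

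In 8-cell replicate 3, 9 of 10 members and 98.4% of the other 642 pollen genes were detected. The members stood at a median of 22.9% of their pollen level and the other pollen genes at 24.9%. BraC09g069210.1 had 1094 CPM there, 99.6% of pollen (77.8% to 127%). BraC09g011060.1 had 1007 CPM, 45.8% of pollen (36.8% to 56.9%), an interval that does not reach that of BraC09g069210.1. BraC04g008260.1, near BraC09g069210.1 in pollen, had 95.1 CPM, 9.38% (4.71% to 17.0%). Its interval lies far below that of BraC09g069210.1, so these members stood in other proportions than in pollen by more than counting error. Across the 10 members its levels followed those of pollen with a Spearman rho of 0.766; the points share 1 library on each axis and its depth.

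In 2-cell replicate 2, 9 of 10 members were detected as well, at a median of 10.1% of pollen, with 20.8% for the other pollen genes and a rho of 0.869 over the 10 members. BraC08g023270.1 was highest relative to pollen, with 237 CPM or 33.0% (22.0% to 48.8%), and BraC09g011060.1 had 328 CPM or 14.9%. BraC04g008260.1 was again low, with 42.6 CPM or 4.195% (1.65% to 8.91%).

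In 4-cell replicate 3 a single member held most counts, and the rho with pollen over the 10 members was 0.426. BraC04g008260.1 had 28 of the 35 member counts, 755 CPM or 74.4% of pollen (47.5% to 113%), while BraC09g011060.1, the most abundant in pollen, had 0 counts, which allows up to 4.56%. BraC08g023270.1 had 4 counts, and 3 members had 1 count each. At 37097 gene counts, 1 count there equals 27.0 CPM. The other pollen genes had a median of 1.57% of their pollen level in this library. Without BraC04g008260.1 the summed member level was 189 CPM in 4-cell replicate 3 and 191 CPM in 4-cell replicate 2. BraC06g049330.1 had 0 counts in all 9 embryo libraries.

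Against heated K2 microspores, with the 3 stages weighted equally, 3 of 9 members with at least 10 counts were called higher in embryos: BraC04g008260.1, BraC08g005710.1 and BraC01g042910.1. In this comparison 27.7% of all genes were called, 4.03% higher and 23.6% lower, and the median log2 change of all genes was -1.23. These calls are not independent of how the members were chosen: the rule held the mean of heated microspores under 20 CPM and of embryos only the median, which allows high single libraries. The 3 members also passed the minimum mainly through embryos, with 48, 24 and 37 counts there, against 1, 1 and 2 in heated microspores. In simulated data this comparison gave more false calls than the others. The values are therefore given as a description. BraC04g008260.1 had 0, 42.6 and 0 CPM in 2-cell, 0, 31.9 and 755 in 4-cell and 0, 0 and 95.1 in 8-cell embryos, against 0, 4.802 and 0 in heated microspores. Embryos and microspores overlap, since 5 of 9 embryo libraries were at 0. Its log2 change was 4.81 ± 1.03 (approximate SE; edgeR, adjusted p = 0.000142), and those of BraC08g005710.1 and BraC01g042910.1 were 3.42 ± 1.27 and 3.27 ± 1.22 (edgeR, adjusted p = 0.0307 and 0.0321). DESeq2 called 0 of 9 members, 3 of which had no adjusted p. Without 2-cell replicate 2 edgeR called 0 members. It also called 0 without all 3 high libraries, where only 3 members had enough counts to be tested. None of the 3 members called with all libraries was among them. Without 8-cell replicate 3 none of those 3 was called, and BraC09g069210.1 and BraC09g011060.1 were called (edgeR, adjusted p = 0.0213 and 0.0257). With 2-cell replicate 2 or 8-cell replicate 3 left out, the 3 had 0 counts in the remaining libraries of that stage. The SE for BraC04g008260.1 was then 450 and 246, so these fits could not test the 3 members. Without heated replicate 3, BraC04g008260.1 was the 1 member called. Without heated replicate 1 or 4-cell replicate 1 BraC08g005710.1 was not called. Without heated replicate 2 or 4-cell replicate 3 BraC01g042910.1 was not called. In both of these 4-cell fits the gene not called had 0 counts in the remaining 4-cell libraries, so they could not test it either. With all libraries the most abundant members were not called: BraC09g011060.1 and BraC09g069210.1 had log2 changes of 6.74 ± 5.81 and 6.37 ± 4.69 (edgeR, adjusted p = 0.429 and 0.342), with 127 of 183 and 138 of 162 embryo counts in 8-cell replicate 3.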

How the data were processed

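RNA-seq of 36 libraries in 12 groups of 3 was used, 1 count table per library. The authors deposited unnormalized counts of reads for each gene. The submitters' processing notes list Trim Galore, HISAT2, Picard and HTSeq. Their versions, the strand setting, the build and the annotation were not given in sources used here. Without the strand setting, reads from a gene and an antisense partner cannot be told apart, and members may share reads with similar copies.

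Rows without a gene entered neither library sizes nor tests. In the 34 libraries with gene counts, 53.4% to 85.3% of reads fell in no annotated gene. CPM is the count over the sum of gene rows. The members and tests were chosen with earlier results of these data known. Genes were tested with edgeR 4.0.16 (R 4.3.3; quasi-likelihood, robust, TMM factors, at least 10 counts summed over the libraries of a fit, Benjamini-Hochberg adjustment over all genes, called under 0.05). The low minimum was used because the ceiling of 20 CPM puts microspore traces under edgeR's default filter. A member that passes the minimum through 1 group is more likely to differ. The 18 microspore libraries formed 1 fit (30965 genes), the 6 leaf libraries another (22633), and K2 microspores with embryos the last (30239). The approximate SE is the log2 change over the root of the F statistic. Alternatives were DESeq2 1.42.0, other size factors and filters, a replicate block, only the groups compared, and leaving out each library. Tests were checked on simulated data, where the embryo comparison gave more false calls than the others. Intervals are exact (scipy 1.17.1), and a floor is 3 counts. K2 late replicates 2 and 3 were the closest pair (chi-square per degree of freedom 1.04 over 5483 genes, p = 0.0216 across genes) and were kept apart. The rule for named IDs took the 2 members highest in pollen, the member just above the pollen minimum, the 2 highest in microspores, the 2 highest in an embryo library, the highest in leaf, and called members. The remaining members, the IDs nearest the limits, 1 neighbouring ID and the uncalled members were named after their values were seen.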

Additional observations from a re-analysis of the deposited data

Results flagged for a closer look

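K2 pollen replicates 2 and 3, which entered no comparison, held 4594119 and 4395263 reads, all of them in no annotated gene and 0 in any gene. They are shown because these libraries hold many reads, none of which was assigned to a gene. K2 pollen replicate 1 had 69.6% of its reads in no annotated gene. The cause was not tested.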

How the results depend on the processing

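The limits decide the member list. The number of genes was 5 with every leaf and microspore library under 20 CPM, 5 with a ceiling of 10 CPM, 5 with a stricter pollen minimum and 6 with an embryo mean under 50 CPM. Without the member with the most counts the summed level was 19.7 CPM in unheated K2 and 23.5 CPM in 49CX late microspores. Without the 3 high embryo libraries, an alternative chosen after seeing the data, the pooled embryo level was 36.0 CPM, against 819.9 CPM with them. Against heated K2, 0 members were called there, where 3 had enough counts to be tested, none of them called in the main fit. Embryos against heated K2 gave 1 call with edgeR's default filter (BraC08g023270.1, adjusted p = 0.0455), where 2 members had enough counts to be tested. The comparison gave 0 calls with DESeq2 and 0 to 4 with a library left out. Leaving out 1 library gave 0 to 1 calls for heat in K2, 0 to 1 for unheated against late K2, 1 to 2 for K2 against 49CX without heat and 0 to 1 in leaf. For K2 against 49CX without heat there were 0 calls with DESeq2, which gave no adjusted p for 7 of 8 members, the 2 called included, and 1 with only the groups compared, where BraC09g011060.1 had too few counts to be tested. Unheated against late 49CX gave 1 call with DESeq2's size factors and 1 with only the groups compared, where 2 members had enough counts to be tested. The cause of these changes was not tested.

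The members called kept their direction in every alternative that gave an adjusted p. No member was left to test under edgeR's default filter in the microspore and leaf fits, or in leaf without K2 replicate 2 or 49CX replicate 3. Scaling by library size alone moved the median log2 change of all genes by -0.47 to 0.39 and with DESeq2's size factors by -0.16 to 0.24; library size alone changed no member call. Same-numbered libraries did not deviate together (r of -0.31 to 0.09), so the numbers pair nothing. With a replicate block the member calls numbered 1 for heat in K2, 1 for unheated against late K2, 2 for K2 against 49CX without heat and 3 for embryos. In embryos these were other genes in part: BraC08g005710.1 and BraC01g042910.1 were no longer called (adjusted p = 0.0600 and 0.0779), BraC04g008260.1 was still called, and BraC08g023270.1 and BraC09g069210.1 were called in addition (adjusted p = 3.96e-05 and 0.0400).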
